A study of Mus musculus with 15 samples.

Results

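The zinc axis of mouse articular chondrocytes was followed here through 6 named genes out of 24134 in the count tables. The importers were *Slc39a8* (gene ID 67547), which encodes ZIP8, and *Slc39a14* (213053), which encodes ZIP14. The exporter was *Slc30a1* (22782), which encodes ZnT1. The sensor was *Mtf1* (17764), and the buffers were the metallothionein genes *Mt1* (17748) and *Mt2* (17750). The rows were found by gene ID in both tables, and all 6 passed the filter on low counts in each. The list was chosen by gene name around *Slc39a8*, which was selected on its measured level in the XAV939 and IWR-1 libraries, where it separated the inhibitors. Its values in the inhibitor libraries are therefore given as a description, with no test.

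The cells were primary chondrocytes from the femoral condyles and tibial plateaus of ICR mice aged 4 to 5 days, cultured at passage 0. The drug table held DMSO, 10 µM XAV939 and 10 µM IWR-1, each for 108 h, and the siRNA table held siCtrl (control siRNA) and siTnks12 (siRNAs against *Tnks* and *Tnks2* together), for which no time is stated in the sources used here. XAV939 and IWR-1 inhibit the catalytic activity of the tankyrases, enzymes that attach poly(ADP-ribose) to other proteins, while the siRNAs lower the mRNAs that encode them. Each group had 3 libraries, which the labels call biological replicates without saying whether they came from separate animals.

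ZIP proteins carry zinc into the cytosol, ZnT proteins carry it out of the cytosol, and metallothioneins are small cysteine-rich proteins that bind zinc and release it again. MTF1 is a zinc-finger transcription factor that binds DNA when cytosolic zinc is high, at short sites called metal response elements (MREs), and the metallothionein genes and *Slc30a1* are its best-known targets. In cartilage, ZIP8 is known as an importer whose zinc influx activates MTF1 and, through it, genes of matrix-degrading enzymes.

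The promoters of *Mt1*, *Mt2* and *Slc30a1* are shown because these genes are the established MTF1 targets among the members. The stretches are the 250 bases before the RefSeq transcription start, on the plus strand of GRCm38.p6, which is the strand of each gene, and capitals mark matches to the MRE core TGCACNC or TGCGCNC on either strand.
*Mt1*, chr8:94178839-94179088: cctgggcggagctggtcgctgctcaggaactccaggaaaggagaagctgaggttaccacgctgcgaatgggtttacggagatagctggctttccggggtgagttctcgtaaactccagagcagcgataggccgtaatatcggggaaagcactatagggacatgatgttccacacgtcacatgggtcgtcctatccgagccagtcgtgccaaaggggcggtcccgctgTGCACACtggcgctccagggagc
*Mt2*, chr8:94172368-94172617: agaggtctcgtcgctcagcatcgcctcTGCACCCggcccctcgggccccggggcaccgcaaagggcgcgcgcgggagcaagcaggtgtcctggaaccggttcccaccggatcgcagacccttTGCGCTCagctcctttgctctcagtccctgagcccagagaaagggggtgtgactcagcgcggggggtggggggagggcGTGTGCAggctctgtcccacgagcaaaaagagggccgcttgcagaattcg
*Slc30a1*, chr1:191906531-191906780: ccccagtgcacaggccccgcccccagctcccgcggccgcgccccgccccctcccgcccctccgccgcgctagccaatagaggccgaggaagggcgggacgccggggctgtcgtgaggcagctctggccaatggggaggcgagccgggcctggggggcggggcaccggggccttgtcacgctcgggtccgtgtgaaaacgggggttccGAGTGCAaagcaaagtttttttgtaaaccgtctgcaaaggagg
*Mt1*, from base 3 to base 27 after the listed start, chr8:94179091-94179115: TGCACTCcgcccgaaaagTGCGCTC

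In windows of 300 bases (250 before and 50 after the listed start), *Mt2* held 4 core matches, *Mt1* held 3 and *Slc30a1* held 2. Of 32851 mouse promoters in the table, 25.7% held at least 1 match, 7.11% at least 2, 1.97% at least 3 and 0.517% at least 4. The match of *Slc30a1* before the start lay on the opposite strand, 43 to 37 bases upstream. *Slc39a8* had 0 matches at its first listed start and 1 at its second, and *Mtf1* had 0. Of the 6 members, 5 matched a promoter in the table. A match of letters is a description and not a measured binding site. The GENCODE M21 start of *Mt2* (chr8:94172664) lies after the listed one and that of *Mt1* (chr8:94179082) before it. Which start the chondrocytes use cannot be read from gene counts, so the positions and numbers of matches hold for the listed starts only.

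**Figure D1:**
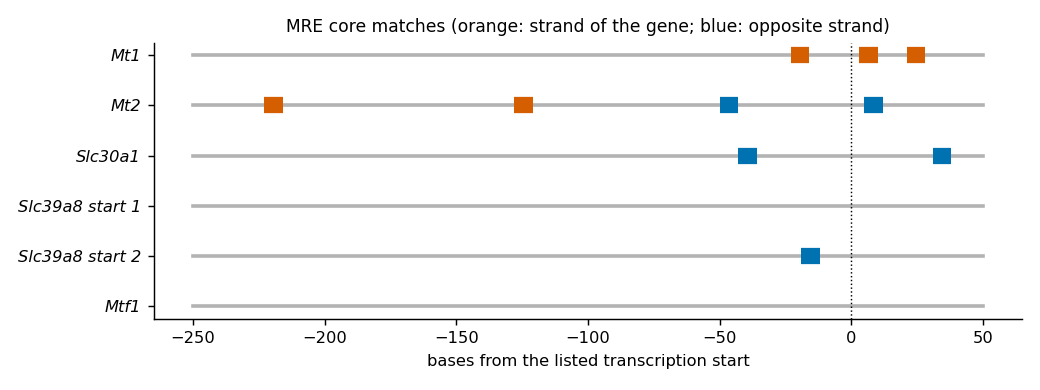
Matches to the MRE core in the 300-base windows of the members with a listed promoter, by distance in bases from the listed transcription start. *Mt2* held 4 matches and *Mt1* 3, all 3 of the latter within 23 bases before to 27 bases after the start, whereas *Mtf1* and the first start of *Slc39a8* held 0. The start used in these cells was not measured.

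The genes lie apart in the genome except for the metallothioneins. In the GENCODE M21 annotation of GRCm38, *Mt2* (chr8:94172664-94173568) and *Mt1* (chr8:94179082-94180327) are neighbours on the plus strand, and they share no stretch of 31 bases in their transcripts. *Slc39a8* spans chr3:135825279-135888572, *Slc39a14* chr14:70303469-70351425 on the minus strand, *Slc30a1* chr1:191906767-191913247 and *Mtf1* chr4:124802104-124849800. The exons of *Mt2*, *Slc30a1* and *Mtf1* overlap a gene of the opposite strand (*Gm45774*, *1700034H15Rik* and *1110065P20Rik*, respectively). The strand setting of the counting is not given in the sources used here, so reads of these 3 genes cannot be told apart from those of their partners. *1700034H15Rik* itself had 21 to 39 counts and *1110065P20Rik* 491 to 940 counts per library.

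Libraries held 26857070 to 31254278 counts in the siRNA table and 27438611 to 36615194 in the drug table. Among 13672 genes tested with the knockdown, *Tnks* (log2 fold change -1.81, SE 0.22, adjusted p = 0.00569) and *Tnks2* (-1.10, SE 0.11, adjusted p = 0.00384) fell, with the 3 knockdown libraries below the 3 controls for both. *Tnks2* was also lower with XAV939 (-0.41, SE 0.12, adjusted p = 0.0394), a call near the threshold. It did not pass with IWR-1 (-0.27, adjusted p = 0.105). *Tnks*, at 20 to 64.1 CPM with DMSO, did not pass with XAV939 (adjusted p = 0.263) or IWR-1 (adjusted p = 0.754). The 8 chondrocyte markers (*Col2a1*, *Acan* and others) summed to 26700 to 35800 CPM (counts scaled to the same effective library size) with DMSO, 36800 to 55000 with XAV939, 88100 to 111000 with IWR-1, 84400 to 113000 with siCtrl and 120000 to 194000 with siTnks12. Of these 8, 8 rose with IWR-1, 3 with XAV939 and 2 with the knockdown, against 16.2%, 7.57% and 10.4% of all genes. With the replicate number as a block 7 rose with XAV939 and 6 with the knockdown. The count was 0 with the knockdown without siCtrl replicate 1 or 3 and 1 with XAV939 without DMSO replicate 1. It rose to 4 with the knockdown without siTnks12 replicate 3 and was 6 by DESeq2's Wald test. The 6 leukocyte markers summed to at most 2.01 CPM in any library, with *Cd3e* at 0 in both siRNA groups. The 4 endothelial markers summed to at most 1.5 CPM except for siTnks12 replicate 2 (6.52 CPM), and the 5 muscle and fat markers to at most 6.91 CPM. Among these scarce markers, *Csf1r* (a macrophage receptor) had means of 1.03, 0.861 and 0.425 CPM with DMSO, XAV939 and IWR-1, and fell with IWR-1 (log2 fold change -1.16, adjusted p = 0.0215), though not without DMSO replicate 2 or IWR-1 replicate 1 or 2. *Tek* (an endothelial receptor) had means of 0.781, 0.451 and 0.109 CPM, fell with IWR-1 (-2.30, adjusted p = 0.000374), and was lower with IWR-1 than with XAV939 (-1.595, adjusted p = 0.0102), the latter not without IWR-1 replicate 1. Their means descended in the order of those of *Slc39a8*, as did 23.9% of the genes tested in the drug table. The means of *Ptprc*, *Itgam*, *Cd79a*, *Kdr* and *Cdh5* also descended, from 0.186 CPM or less. With DMSO, XAV939 and IWR-1 *Adgre1* stood at 0.155, 0.269 and 0.136 CPM and *Pecam1* at 0.13, 0.095 and 0.162 CPM, out of that order. The part of these markers in the results was not tested. In such bulk RNA, fewer cells of a type and less RNA per cell cannot be told apart.

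ZIP8 had a transcript that ranged from 4.95 to 134 CPM over the 15 libraries. In the DMSO libraries *Slc39a8* stood at 121, 134 and 121 CPM (125 ± 7.35, SD, n = 3). With XAV939 it stood at 69.3, 68.4 and 84.3 CPM (74.0 ± 8.92), and with IWR-1 at 21.5, 23.6 and 21.1 CPM (22.1 ± 1.35). The groups formed 3 steps with no overlap, DMSO above XAV939 above IWR-1. The log2 difference from DMSO was -0.76 (SE 0.11) with XAV939 and -2.50 (SE 0.11) with IWR-1, a 1.69-fold and a 5.66-fold lower level. Between the inhibitors, at matched dose and time, the log2 difference was -1.74 (SE 0.11) for IWR-1 against XAV939, and 129 of the 13873 genes tested had a lower value in that comparison. These differences chose the gene and are not tested. The summed chondrocyte markers stood in the reverse order over the same groups, as did the mean of each marker. Most of that sum was *Col2a1*, with means of 23800, 34200 and 74900 CPM with DMSO, XAV939 and IWR-1. The part of these markers in the level of *Slc39a8* was not tested.

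In the siRNA libraries, which the choice did not use, *Slc39a8* was scarce. The controls stood at 4.95, 12.1 and 5.39 CPM and the knockdown libraries at 6.73, 20.5 and 7.05 CPM in the order of replicates 1 to 3. The groups overlapped, replicate 2 was the highest in both, and each knockdown library was above the control of the same number. The log2 fold change was 0.61 (SE 0.53, 95% interval -0.64 to 1.86, adjusted p = 0.448). Blocked on the replicate number it was 0.54 and passed the test (adjusted p = 0.0172). It was 0.41 (adjusted p = 0.0415) without replicate 2 of both groups and -0.105 (adjusted p = 0.867) without siTnks12 replicate 2 alone. That library also held the 6.52 CPM of endothelial markers, whose part in the level of *Slc39a8* was not tested. Between the tables the control levels were far apart, 4.95 to 12.1 CPM with siCtrl against 121 to 134 CPM with DMSO. Transfection, culture time, the solvent and any other difference between the tables cannot be told apart in that gap, which was not tested.

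**Figure D2:**
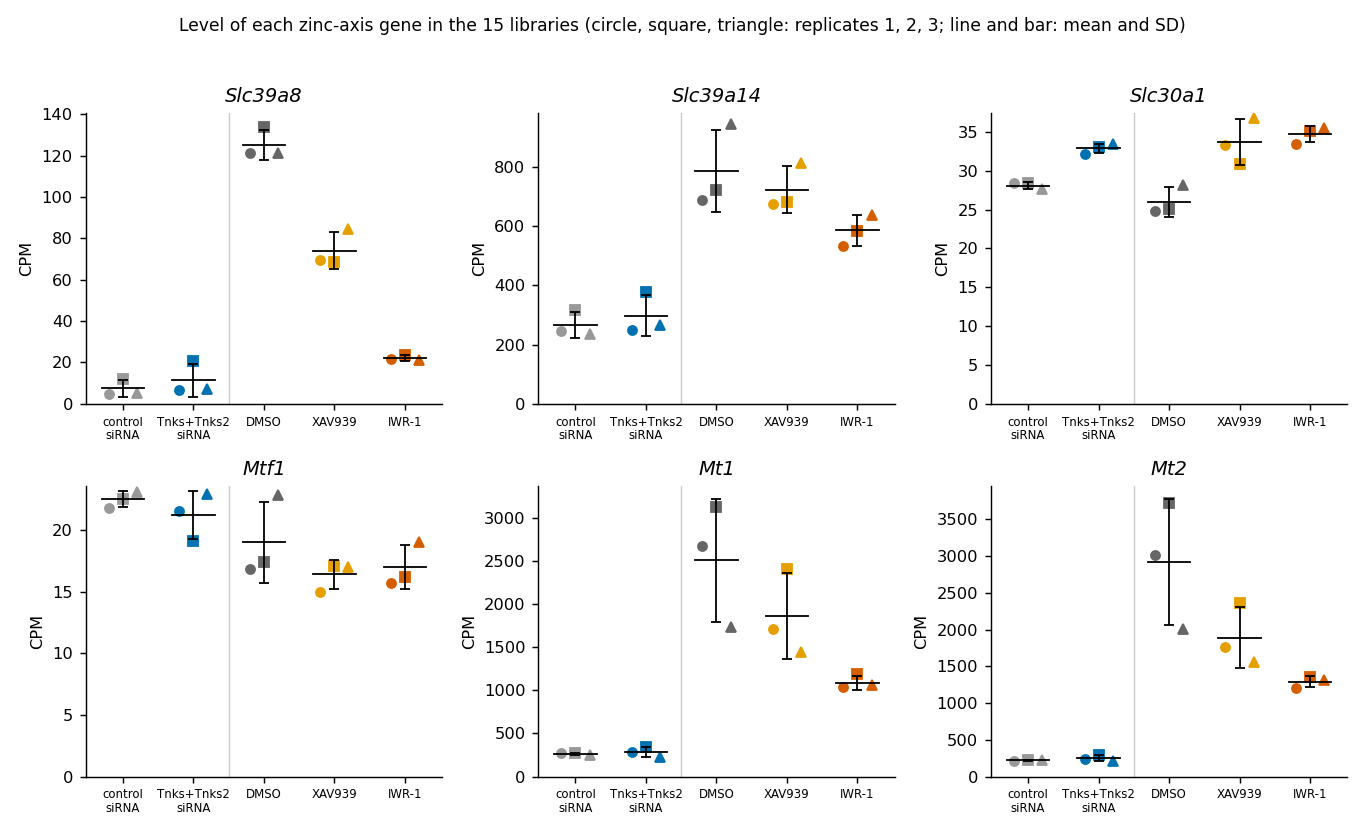
Level in CPM of the 6 genes in the 15 libraries, with the replicate number as the symbol, the group mean as a line and its SD as a bar, and a grey line between the siRNA and drug tables. *Slc39a8*, *Mt1* and *Mt2* had their lowest drug-table means with IWR-1, whereas *Slc30a1* was lowest with DMSO and *Mtf1* varied little.

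ZIP14, the close relative of ZIP8, had the higher level per kilobase of exon of these importers in every library. *Slc39a14* stood at 689, 723 and 945 CPM with DMSO, at 675, 682 and 814 CPM with XAV939, and at 532, 584 and 638 CPM with IWR-1. The IWR-1 libraries lay below all DMSO and XAV939 libraries, while the DMSO and XAV939 libraries overlapped. *Slc39a14* fell with IWR-1 (log2 fold change -0.43, SE 0.15, adjusted p = 0.041), and its value with XAV939 was -0.12 (SE 0.15, adjusted p = 0.605). The fall with IWR-1 did not pass the test without DMSO replicate 3, the highest of the DMSO libraries (-0.28, adjusted p = 0.118), nor without XAV939 replicate 1 (adjusted p = 0.0518), IWR-1 replicate 1 (0.145) or IWR-1 replicate 2 (0.111). For IWR-1 against XAV939 the log2 fold change was -0.31 (95% interval -0.63 to 0.02, adjusted p = 0.18), and with the replicate block it was -0.31 with an adjusted p of 0.0258.

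In the siRNA table *Slc39a14* stood at 245, 317 and 237 CPM with siCtrl and at 249, 376 and 266 CPM with siTnks12. The groups overlapped, and replicate 2 was again the highest in both. The log2 fold change was 0.16 (95% interval -0.27 to 0.59, adjusted p = 0.575). Per kilobase of exon, the level of *Slc39a14* was 3.93 to 5.67 times that of *Slc39a8* in the DMSO libraries, 7.02 to 7.24 times with XAV939 and 18.0 to 21.9 times with IWR-1. In the siRNA table this ratio of levels ranged from 13.3 to 35.9.

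ZnT1, the exporter of the plasma membrane, was higher in each comparison with a control. *Slc30a1* stood at 24.8, 25.1 and 28.2 CPM with DMSO, at 33.3, 30.9 and 36.8 CPM with XAV939, and at 33.5, 35.1 and 35.5 CPM with IWR-1. All 6 inhibitor libraries lay above all 3 DMSO libraries, and the inhibitor groups overlapped each other. *Slc30a1* rose by 0.37 on the log2 scale with XAV939 (SE 0.10, adjusted p = 0.0311) and by 0.42 with IWR-1 (SE 0.10, adjusted p = 0.00888), 1.29-fold and 1.33-fold. The inhibitors were not distinguishable for this gene, with a log2 difference of 0.04 and a 95% interval from -0.18 to 0.27 (adjusted p = 0.811).

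With the knockdown *Slc30a1* stood at 32.2, 33.1 and 33.4 CPM against 28.4, 28.4 and 27.6 CPM in the siRNA controls. The groups did not overlap, and the SD was 0.469 CPM in the controls and 0.594 CPM with the knockdown. The gene rose by 0.23 on the log2 scale (SE 0.06, adjusted p = 0.036), 1.17-fold. These were small changes near the threshold. With the knockdown the call was lost without siCtrl replicate 1, 2 or 3 or siTnks12 replicate 1 or 3 (log2 fold changes of 0.21 to 0.24, adjusted p up to 0.129) and without a filter on low counts (0.22, adjusted p = 0.062). With XAV939 it was lost when only DMSO and XAV939 were fitted (0.36, adjusted p = 0.11), without the filter (0.35, adjusted p = 0.0612), and without DMSO replicate 1 or 2, XAV939 replicate 1 or 3 or any 1 IWR-1 library (0.29 to 0.38, adjusted p up to 0.121). With IWR-1 it passed in every fit run, with a lowest value of 0.38 without a library.

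**Figure D3:**
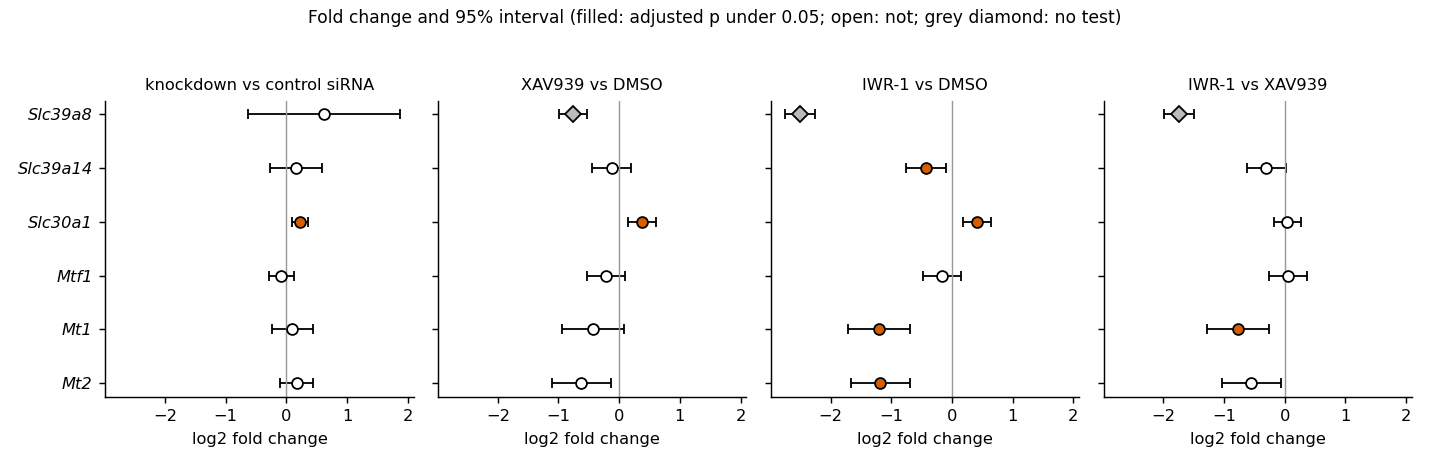
Log2 fold change of the 6 genes in the 4 comparisons, with the 95% interval as a bar. Filled points passed an adjusted p of 0.05, open points did not, and grey diamonds were not tested. The diamonds are *Slc39a8* in the drug libraries that chose it, so their bars describe spread and are not to be read against 0. *Slc30a1* lay to the right of 0 against each control, and the metallothioneins to the left with IWR-1.

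The sensor itself was nearly level. *Mtf1* stood at 16.8, 17.4 and 22.8 CPM with DMSO, at 15, 17.1 and 17.0 CPM with XAV939, and at 15.7, 16.2 and 19.0 CPM with IWR-1. It stood at 21.8, 22.5 and 23.1 CPM with siCtrl and at 21.5, 19.1 and 22.9 CPM with siTnks12. The groups overlapped in all 4 comparisons. The log2 fold changes were -0.09 with the knockdown (95% interval -0.29 to 0.12, adjusted p = 0.516), -0.22 with XAV939 (-0.53 to 0.09, adjusted p = 0.317) and -0.16 with IWR-1 (-0.47 to 0.15, adjusted p = 0.405). The differences of the means were smaller than the larger SD of the groups compared, and mRNA levels do not measure the binding of MTF1 to DNA.

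The metallothioneins were the most abundant members per kilobase of exon, at 180 to 6340 CPM per kilobase against at most 89.6 for *Slc39a14*. For *Mt1* the exon length used, 1246 bases, equals the whole span of the gene, so its level per kilobase may be understated. *Mt1* stood at 2670, 3130 and 1730 CPM with DMSO, at 1710, 2410 and 1450 CPM with XAV939, and at 1040, 1190 and 1060 CPM with IWR-1. *Mt2* stood at 3020, 3730 and 2010 CPM with DMSO, at 1760, 2360 and 1560 CPM with XAV939, and at 1200, 1350 and 1310 CPM with IWR-1. For both genes the IWR-1 libraries lay below every DMSO and XAV939 library, and the DMSO and XAV939 groups overlapped. DMSO replicate 3 was the lowest of the DMSO group for both genes and the highest for *Slc39a14*, *Slc30a1* and *Mtf1*.

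With IWR-1, *Mt1* fell 2.29-fold (log2 fold change -1.20, SE 0.23, adjusted p = 0.00219) and *Mt2* 2.26-fold (-1.18, SE 0.22, adjusted p = 0.0018). The exact two-sided permutation test of log2 CPM gave p = 0.1 for both, the smallest that 3 libraries against 3 allow. These calls passed in every fit run, and without any 1 library the log2 fold changes ranged from -1.41 to -1.01 for *Mt1* and from -1.39 to -0.97 for *Mt2*. With XAV939, the values were -0.43 for *Mt1* (SE 0.23, adjusted p = 0.221) and -0.63 for *Mt2* (SE 0.22, adjusted p = 0.0739), and in each of the 3 pairs of the same number the XAV939 library was the lower. In the blocked fit both passed, at -0.43 (adjusted p = 0.0313) for *Mt1* and -0.61 (adjusted p = 0.00779) for *Mt2*. *Mt2* with XAV939 also passed without DMSO replicate 3 (-0.845, adjusted p = 0.0121), without XAV939 replicate 2 (-0.82, adjusted p = 0.048) and by DESeq2's Wald test (-0.63, adjusted p = 0.0219).

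Set against each other at 10 µM and 108 h, the single pair of compounds differed for *Mt1*. IWR-1 was lower than XAV939 by a log2 difference of -0.76 (SE 0.23, adjusted p = 0.0438). This call was lost without DMSO replicate 1, XAV939 replicate 1 or 2, or any 1 IWR-1 library, with log2 differences of -0.82 to -0.53 and adjusted p-values of up to 0.142. For *Mt2* the log2 difference was -0.55 (95% interval -1.04 to -0.07, adjusted p = 0.112). It passed with the replicate block (-0.52, adjusted p = 0.0189), when only the inhibitor groups were fitted (-0.56, adjusted p = 0.0455) and without DMSO replicate 3 (-0.55, adjusted p = 0.0388).

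In the siRNA table the metallothioneins were low, and the groups overlapped. *Mt1* stood at 268, 273 and 249 CPM with siCtrl and at 283, 338 and 225 CPM with siTnks12. *Mt2* stood at 218, 223 and 225 CPM with siCtrl and at 239, 297 and 214 CPM with siTnks12. The siTnks12 libraries lay on both sides of the controls for each gene. The log2 fold changes were 0.10 for *Mt1* (95% interval -0.24 to 0.43, adjusted p = 0.664) and 0.17 for *Mt2* (-0.11 to 0.45, adjusted p = 0.352). The ratio of *Mt2* to *Mt1* in CPM was 0.814 to 0.951 in the siRNA libraries and 0.978 to 1.24 in the drug libraries.

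The effects of the knockdown and of each inhibitor were compared in a single model over 14271 genes. The knockdown effect minus the IWR-1 effect was 1.30 (SE 0.30, adjusted p = 0.00602) for *Mt1* and 1.35 (SE 0.28, adjusted p = 0.00287) for *Mt2* on the log2 scale. For *Slc39a14* it was 0.60 (SE 0.24, adjusted p = 0.0898), and with the replicate block 0.57 (adjusted p = 0.002). The knockdown effect minus the XAV939 effect was 0.81 (SE 0.28, adjusted p = 0.0703) for *Mt2*, and with the block 0.78 (adjusted p = 0.0125). For *Slc30a1* the differences were -0.13 (95% interval -0.39 to 0.12, adjusted p = 0.496) against XAV939 and -0.18 (-0.44 to 0.08, adjusted p = 0.303) against IWR-1. For *Mtf1* the adjusted p-values were 0.632 and 0.764. Over all genes, 13.5% differed in this way between the knockdown and XAV939 and 24.4% between the knockdown and IWR-1. The control means also lay apart between the tables, at 264 CPM with siCtrl against 2510 CPM with DMSO for *Mt1*. For *Mt2* they were 222 and 2920 CPM. Transfection, culture time, the solvent and anything else that differs between the tables cannot be told apart from the agent in such differences.

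Counted together, 1 of the 6 members passed with the knockdown, against 18.0% of all genes tested (10.4% higher and 7.61% lower). Of the 5 members tested in the drug table, 1 passed with XAV939, against 17.4% of all genes (7.57% higher and 9.85% lower). With IWR-1 4 passed, 1 of them higher, against 36.4% (16.2% higher and 20.2% lower), and between the inhibitors 1 passed, against 17.6% (7.37% higher and 10.2% lower). With the replicate block, the members that passed were *Slc30a1* and *Slc39a8* with the knockdown, *Mt1*, *Mt2* and *Slc30a1* with XAV939, and *Mt1*, *Mt2* and *Slc39a14* between the inhibitors. These were 2 of 6, 3 of 5 and 3 of 5, against 34.6%, 33.4% and 30.7% of all genes in the blocked fit, and with IWR-1 4 of 5 passed against 47.5%. Groups that did not overlap were seen for 1 of 6 members with the knockdown (43.8% of all genes). Of the 5 members tested in the drug table they were seen for 1 with XAV939 (33.2%), 4 with IWR-1 (51.1%) and 3 between the inhibitors (37.6%). The shares of all genes that passed, with and without the block, are also the background of the list counts below.

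Among the other 12 ZIP genes, 9 were tested in the drug table. Of these, 4 fell and 1 rose with IWR-1, and 2 fell with XAV939. Of all genes, 20.2% fell and 16.2% rose with IWR-1, and 9.85% fell with XAV939. *Slc39a10*, the ZIP10 importer whose transcription MTF1 represses, had means of 75, 35 and 28.9 CPM with DMSO, XAV939 and IWR-1. Its log2 fold changes were -1.10 with XAV939 (SE 0.17, adjusted p = 0.00151) and -1.38 with IWR-1 (SE 0.17, adjusted p = 0.000106). *Slc39a13*, which encodes ZIP13, an importer whose loss is known to affect connective tissue, fell by 0.91 with IWR-1 (adjusted p = 0.000328) and by 0.43 with XAV939 (adjusted p = 0.0438). *Slc39a11* rose by 0.71 with IWR-1 (adjusted p = 0.000682). Between the inhibitors *Slc39a11* was higher (0.57, adjusted p = 0.00667) and *Slc39a4* (-1.37, adjusted p = 0.0134) and *Slc39a13* (-0.48, adjusted p = 0.0284) lower with IWR-1. Blocked, 1 was higher and 4 were lower. Without any 1 library, *Slc39a10* with XAV939, *Slc39a4*, *Slc39a10*, *Slc39a11* and *Slc39a13* with IWR-1, and *Slc39a11* between the inhibitors kept their calls. *Slc39a13* with XAV939 passed in 2 of the 9 fits without 1 library (adjusted p up to 0.165). Between the inhibitors *Slc39a13* lost its call without XAV939 replicate 1 or any 1 IWR-1 library, and *Slc39a4* without IWR-1 replicate 1 or 2. The median log2 fold change of the 9 genes was 0.01 with XAV939 and 0.13 with IWR-1, against 0.02 and 0.01 over all genes.

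With the knockdown 3 of 8 tested ZIP genes rose and 0 fell, with a median of 0.18 against -0.001 over all genes. Of all genes, 10.4% rose and 7.61% fell. *Slc39a11* rose 2.02-fold, from a mean of 44.6 to 90.1 CPM (log2 fold change 1.01, SE 0.11, adjusted p = 0.00384). *Slc39a9* (0.28, adjusted p = 0.0163) and *Slc39a6* (0.29, adjusted p = 0.0291) rose less. Without siCtrl replicate 1, 2 or 3 or siTnks12 replicate 1 only *Slc39a11* passed, and with the block 4 rose and 1 fell.

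Among the other 9 ZnT genes, 6 were tested in each table. *Slc30a2*, which encodes the vesicular transporter ZnT2, rose with the knockdown from 1.01 to 3.26 CPM (log2 fold change 1.63, SE 0.27, adjusted p = 0.0121). *Slc30a9* fell by 0.35 with XAV939 (adjusted p = 0.0157) and by 0.27 with IWR-1 (adjusted p = 0.0268), and *Slc30a4* was higher with IWR-1 than with XAV939 (0.45, adjusted p = 0.0266). Each comparison thus had 1 of the 6 ZnT genes past the test. Of all genes, 18.0% passed with the knockdown, 17.4% with XAV939, 36.4% with IWR-1 and 17.6% between the inhibitors. The count under the block was 2 with the knockdown and 2 with XAV939. These calls lay near the threshold and were lost in some fits with 1 library fewer, while the sizes stayed alike. *Slc30a2* with the knockdown did not pass without siCtrl replicate 1, 2 or 3 (adjusted p = 0.0501 to 0.0568), with log2 fold changes of 1.30 to 1.79 over the 6 such fits. *Slc30a9* ranged from -0.38 to -0.32 with XAV939, not passing without DMSO replicate 1 or XAV939 replicate 1, and from -0.29 to -0.26 with IWR-1, not passing without DMSO replicate 1 or any 1 IWR-1 library. *Slc30a4* between the inhibitors ranged from 0.33 to 0.54 and did not pass without XAV939 replicate 1 or any 1 IWR-1 library. The medians of the 6 genes were 0.11, -0.28 and -0.06 on the log2 scale with the knockdown, XAV939 and IWR-1. Of the other metallothioneins, *Mt3* stood at a mean of 0.224 CPM with DMSO and 0.592 CPM with siCtrl, and *Mt4* was at 0 counts in every library. *Mt3* was tested with the knockdown alone (-1.24, adjusted p = 0.192) and was lower with the block.

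**Figure D4:**
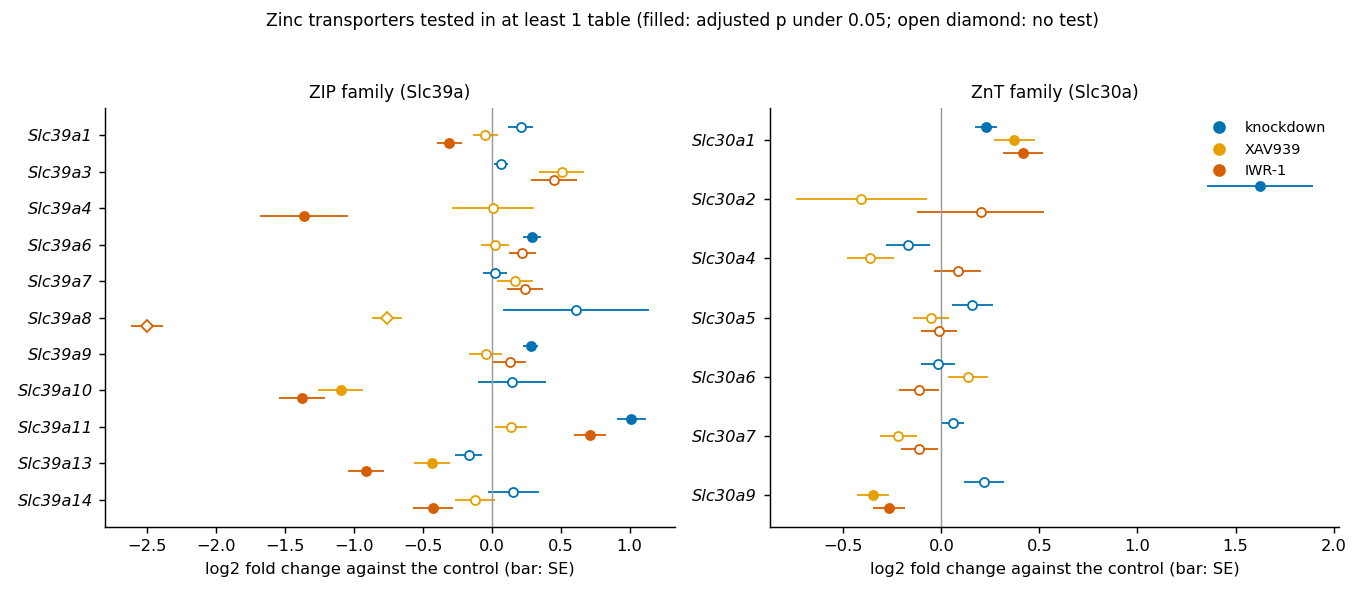
Log2 fold change (points) and SE (bars) of the ZIP and ZnT genes that passed the filter in at least 1 table, with knockdown in blue, XAV939 in yellow and IWR-1 in orange. Filled points passed an adjusted p of 0.05, and open diamonds mark *Slc39a8*, which was not tested in the drug libraries. *Slc39a10* and *Slc39a13* lay below 0 with both inhibitors. *Slc39a11* lay above 0 in each comparison drawn and passed with the knockdown and IWR-1, but not with XAV939 (0.14).

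Among 5 other genes that MTF1 is known to regulate, the inhibitors gave mostly lower levels. With XAV939 3 of 5 fell and with IWR-1 4 of 5 fell, and 0 rose, with medians of -0.63 and -0.89 on the log2 scale. Of all genes tested, 9.85% fell with XAV939 and 20.2% with IWR-1, with medians of 0.02 and 0.01. With the knockdown 18.0% of all genes passed, and between the inhibitors 17.6%. *Ndrg1*, a stress-responsive gene that hypoxia also induces, fell from a mean of 664 CPM to 289 CPM with XAV939 (log2 fold change -1.20, adjusted p = 0.000184) and 357 CPM with IWR-1 (-0.89, adjusted p = 0.000263). *Gclc*, the catalytic subunit of the first enzyme of glutathione synthesis, fell by 1.19 with IWR-1 (adjusted p = 0.00104). *Csrp1*, which encodes a LIM-domain protein, fell by 0.35 with XAV939 (adjusted p = 0.0475), by 0.63 with IWR-1 (adjusted p = 0.00105) and by 0.67 with the knockdown (adjusted p = 0.0246). It was the 1 gene of the 5 that passed with the knockdown, and it did not pass there without siCtrl replicate 1, 2 or 3 or siTnks12 replicate 1. With XAV939 it passed in 1 of the 9 fits without 1 library (adjusted p up to 0.184). *Slc39a10*, described above and part of both lists, is the remaining gene that fell with the inhibitors and is a target that MTF1 represses, whereas the metallothioneins are targets that it activates. Between the inhibitors 0 of 5 passed in edgeR's quasi-likelihood test and 0 by DESeq2's Wald test, with 3 at an unadjusted p under 0.05, and with the block 1 was higher and 3 were lower. With the block 1 rose and 2 fell with the knockdown.

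Of the 5 matrix-degrading enzymes placed downstream of zinc influx in cartilage, 4 had means that descended from DMSO over XAV939 to IWR-1, as did 23.9% of the 13873 genes tested. This is also the order on which *Slc39a8* was chosen. *Mmp3* (stromelysin) had means of 9840, 6760 and 1120 CPM with DMSO, XAV939 and IWR-1, and *Mmp13* (collagenase) 13100, 9390 and 3360 CPM. *Adamts5* (aggrecanase) had means of 126, 53.8 and 19.6 CPM, and *Mmp12* (macrophage elastase) 9.89, 5.01 and 1.09 CPM. *Mmp9* (gelatinase) departed from that order, with 13.4, 24.4 and 2.96 CPM. With IWR-1 all 5 fell, with log2 fold changes of -3.13 for *Mmp3* (adjusted p = 3.11e-06), -3.11 for *Mmp12* (adjusted p = 7.38e-06) and -2.16 for *Mmp9* (adjusted p = 1.11e-05). With XAV939 *Adamts5* fell by 1.22 (adjusted p = 0.00331) and *Mmp12* fell by 0.97 (adjusted p = 0.0106), and *Mmp9* rose by 0.86 (adjusted p = 0.00509), while the values of *Mmp3* (-0.54, adjusted p = 0.078) and *Mmp13* (-0.48, adjusted p = 0.0786) did not pass. The blocked fit had 4 that fell and 1 that rose with XAV939. Between the inhibitors all 5 were lower with IWR-1, and these 5 calls, like the 5 with IWR-1 and the 3 with XAV939, passed without any 1 library. The medians were -0.54 with XAV939, -2.68 with IWR-1 and -2.15 between the inhibitors. Of all genes, 9.85% fell and 7.57% rose with XAV939, 20.2% fell with IWR-1, and 10.2% were lower between the inhibitors.

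With the knockdown 2 of the 5 enzymes rose, against 10.4% of all genes, and the median log2 fold change was 0.98. *Mmp13* rose from a mean of 464 to 919 CPM (log2 fold change 0.98, SE 0.10, adjusted p = 0.00384) and *Mmp9* from 0.354 to 2.66 CPM (2.70, SE 0.61, adjusted p = 0.0269), and the other 3 did not pass. With the block 3 rose and 1, *Adamts5*, fell. Without siCtrl replicate 1, 2 or 3 or siTnks12 replicate 1, only *Mmp13* passed, and without siTnks12 replicate 2 there were 2 that rose and 1 that fell. In the same libraries 2 of the 8 chondrocyte markers rose (0 without siCtrl replicate 1 or 3, and 6 with the block), and their part in these values was not tested.

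**Figure D5:**
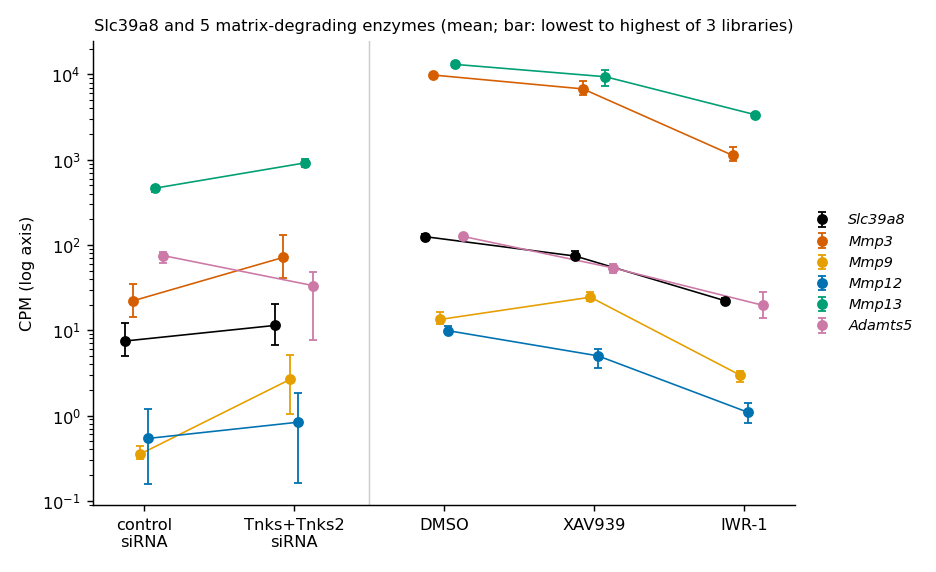
Mean CPM on a log axis of *Slc39a8* and 5 matrix-degrading enzymes in the 5 groups, with bars from the lowest to the highest of 3 libraries and a grey line between the tables. From DMSO over XAV939 to IWR-1 the means of *Slc39a8* went from 125 over 74.0 to 22.1 CPM, and *Mmp3*, *Mmp12*, *Mmp13* and *Adamts5* also descended, while *Mmp9* was highest with XAV939.

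Other metals and hormones bear on the same genes, since metallothioneins also bind copper, ZIP8 and ZIP14 also carry iron and manganese, and glucocorticoids induce *Mt1* and *Mt2*. Of 7 iron and manganese genes, *Slc40a1*, the iron exporter ferroportin, rose by 1.90 with the knockdown (adjusted p = 0.00773), and fell by 0.94 with XAV939 (adjusted p = 0.00268) and by 1.34 with IWR-1 (adjusted p = 9.85e-05). *Fth1*, the ferritin heavy chain, rose by 0.45 with the knockdown (adjusted p = 0.0192) and fell by 0.68 with IWR-1 (adjusted p = 0.0272), and *Aco1* rose with XAV939 (0.42, adjusted p = 0.0155) and IWR-1 (0.36, adjusted p = 0.0164). Between the inhibitors *Fth1* (-1.08, adjusted p = 0.00617) and *Slc11a2* (-0.47, adjusted p = 0.0147) were lower with IWR-1. With the replicate block 3 rose and 1 fell with the knockdown, and 2 rose and 2 fell with XAV939. The calls of *Slc40a1* and that of *Fth1* between the inhibitors passed without any 1 library, whereas *Fth1* with the knockdown did not pass without siCtrl replicate 1, 2 or 3 or siTnks12 replicate 1. With IWR-1, *Fth1* did not pass without DMSO replicate 1 or 2 or any 1 IWR-1 library, nor *Aco1* without DMSO replicate 1 or IWR-1 replicate 2 or 3. With XAV939 *Aco1* did not pass without DMSO replicate 1, and *Slc11a2* between the inhibitors did not pass without IWR-1 replicate 1.

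Of 8 copper genes, *Atp7b*, a copper-exporting ATPase, fell by 2.52 with XAV939 (adjusted p = 0.000825) and by 2.63 with IWR-1 (adjusted p = 0.000168), from a mean of 12.6 CPM to 2.18 and 1.99 CPM. The other 7 did not pass with either inhibitor, while 17.4% of all genes passed with XAV939 and 36.4% with IWR-1. With the knockdown *Atp7a* (0.54), the copper importer *Slc31a1* (0.38) and *Sod1* (0.36) rose, with adjusted p-values of 0.00906 to 0.0177, and without siCtrl replicate 1, 2 or 3 only *Atp7a* passed. With the block 1 rose and 2 fell with XAV939, and 1 was higher between the inhibitors. Of 6 glucocorticoid-responsive genes, *Per1* and *Sgk1* fell with XAV939, *Per1* fell and *Tsc22d3* rose with IWR-1, and *Fkbp5* and *Zbtb16* rose and *Sgk1* fell with the knockdown. Of the calls with the knockdown, *Fkbp5* did not pass without siCtrl replicate 1 or 3, and *Zbtb16* not without either of these or siTnks12 replicate 1, with log2 fold changes of 0.52 to 0.70 and 0.74 to 0.86 over the 6 fits. *Sgk1* with XAV939 did not pass without DMSO replicate 1 or XAV939 replicate 2, and *Tsc22d3* with IWR-1 passed in 3 of the 9 fits without 1 library. The blocked fit had 3 that rose and 1 that fell with the knockdown, 2 and 2 with XAV939, and 1 and 2 with IWR-1, where *Sgk1* was also lower. Between the inhibitors 0 of the 6 passed in edgeR's quasi-likelihood test, 0 by DESeq2's Wald test and 0 at an unadjusted p under 0.05. The part of any of these in the metallothionein values was not tested.

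The genes whose pattern was most like that of *Slc39a8* were ranked by Pearson's r of log2 CPM over the 15 libraries, after the mean of each table was removed, among 13342 genes tested in both tables. They were *4931428F04Rik* (r = 0.963), *Mmp12* (0.956), *Mmp3* (0.955), *Pxylp1* (0.954) and *Ubtd1* (0.951). *4931428F04Rik* had means of 31.5, 24.5 and 16.3 CPM with DMSO, XAV939 and IWR-1. By Spearman's rho *Mmp12*, *Pxylp1* and *4931428F04Rik* stayed among the first 5. Over the 9 drug libraries alone the first 5 were others, led by *Fmo1* (0.994). For *Mt1* the first was its neighbour *Mt2* (0.977), followed by *Tubg2* (0.964), *Bsg* (0.963), *Tceal3* (0.957) and *Dnpep* (0.946). The points share their groups, so these values describe the libraries and carry no p. For *Slc39a8* they include the inhibitor libraries whose levels chose the gene, so its list in part restates that choice.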

How the data were processed

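RNA sequencing covered 15 libraries of primary chondrocytes, prepared with a stranded mRNA kit. Per the submitters' processing notes, the authors used Trimmomatic 0.32, TopHat2 2.0.13 on mm10 and HTSeq 0.6.1p1. The deposited values are raw read counts per Entrez gene ID, without normalization. The annotation and strand setting of the counting are not given in the sources used here.

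Of 24134 IDs, 24051 matched a symbol and 83 did not. Each table was fitted in R 4.3.3 with edgeR 4.0.16 (filterByExpr, TMM, quasi-likelihood F test, prior count 2), and adjusted p-values are Benjamini-Hochberg over 13672 genes (siRNA table) or 13873 genes (drug table), called under 0.05. CPM use TMM-scaled library sizes. Reads carry no molecular identifiers, so counting precision covers counting error only.

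The members and lists were chosen with earlier results of these data known. From each list, up to 3 genes with the smallest adjusted p per comparison are named, besides the members, *Tnks*, *Tnks2* and the 5 genes most like *Slc39a8* and *Mt1*. Other listed genes named (*Csrp1* with IWR-1, all 5 enzymes, *Mt3*, *Mt4*, and the leukocyte and endothelial markers) were chosen after their values were seen. The lists were other ZIP (12 genes), ZnT (9), metallothionein (2), MTF1-regulated (5), catabolic (5), iron and manganese (7), copper (8) and glucocorticoid-responsive (6) genes, and cell type markers.

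Libraries of the same replicate number in the titles deviated together from their group means, with correlations of 0.143 to 0.553 in 9 drug pairs and 0.424 to 0.519 in 3 siRNA pairs, above the limit of 0.1, so a fit with the number as a block is given where it changes a call. Alternatives were RLE and upper-quartile scaling, no filter or at least 10 counts in every library, DESeq2 1.42.0, the block, only the 2 groups compared, and leaving out each library. The edgeR step was tested on simulated data, where 97% of 2-fold changes were recovered for the knockdown with 3.43% false calls, and 99% with 5.69% for IWR-1, on 13672 and 13873 genes. The simulation gave every gene the same spread, had no effect of the replicate number and changed only well-counted genes. These rates therefore need not hold for the data, nor for changes below 2-fold. Promoters are RefSeq's on GRCm38.p6. Gene positions are from GENCODE M21, as are exon lengths, which join the exons of all annotated transcripts of a gene.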

Additional observations from a re-analysis of the deposited data

Results flagged for a closer look

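The effect of the knockdown in the siRNA table differed from that of IWR-1 in the drug table for both metallothioneins, as it did for 24.4% of all genes. Transfection, culture time, the solvent and anything else that differs between the tables cannot be told apart from the agent in this difference. The knockdown effect minus the IWR-1 effect on the log2 scale was 1.303 for *Mt1* (adjusted p = 0.00602) and 1.354 for *Mt2* (adjusted p = 0.00287) by an interaction term over the 15 libraries in edgeR, and with the replicate block both passed as well (1.242 and 1.297).

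For *Slc39a8* the knockdown effect minus the inhibitor effect was 1.391 for XAV939 and 3.129 for IWR-1. It was picked out because each of the 3 knockdown libraries was above the control of the same number while each of the 3 libraries of either inhibitor was below its DMSO library. The difference was not tested, since the gene was chosen on the inhibitor libraries, and it too crosses the tables. Replicate 2 was high in both siRNA groups. The knockdown value was -0.105 without its siTnks12 library alone, which leaves its high control in, and 0.41 (adjusted p = 0.0415) without replicate 2 of both groups.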

How the results depend on the processing

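Of 451 recomputed values for the members, the differences of effects and the counts of calls, 393 kept their direction and their side of the threshold, 25 lost a call, 13 gained one, 8 turned in direction and 12 counts moved by over 1.5 times. *Mt1*, *Mt2* and *Slc30a1* with IWR-1 passed in every fit. Without a filter on low counts *Slc30a1* lost its call with the knockdown (0.224) and XAV939 (0.347). With the replicate block the calls gained were *Slc39a8* with the knockdown (0.541), *Mt1* (-0.43) and *Mt2* (-0.614) with XAV939, *Slc39a14* (-0.305) and *Mt2* (-0.519) between the inhibitors, and the differences of effects of *Mt2* (0.781, XAV939) and *Slc39a14* (0.573, IWR-1). The block raised the genes called to 4727 with the knockdown, 4630 with XAV939 and 4258 between the inhibitors, from 2459, 2416 and 2442, and it changed no other call of a member. DESeq2 called *Mt2* with XAV939 (-0.634). With only the 2 groups compared, *Slc30a1* with XAV939 was lost (0.356), *Mt2* between the inhibitors was gained (-0.556) and 1569 genes were called with XAV939. Upper-quartile scaling turned the split of calls with XAV939 from 1050 higher and 1366 lower to 1338 higher and 1174 lower.

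Without 1 library each, and for the knockdown also without replicate 2 of both groups (added after the data had been seen), the knockdown values ranged from -0.105 to 1.136 for *Slc39a8*, -0.048 to 0.303 for *Slc39a14*, 0.214 to 0.24 for *Slc30a1* and -0.055 to 0.235 for *Mt1* (-0.031 without replicate 2). Without siTnks12 replicate 2 the values of *Slc39a8*, *Slc39a14* and *Mt1* (-0.105, -0.048 and -0.055) fell below 0. With XAV939 they ranged from -0.229 to 0.023 for *Slc39a14* (above 0 without DMSO replicate 3), 0.287 to 0.431 for *Slc30a1* and -0.845 to -0.413 for *Mt2*. With IWR-1 they ranged from -0.514 to -0.278 for *Slc39a14*. Between the inhibitors they ranged from -0.013 to 0.117 for *Slc30a1* (-0.013 without XAV939 replicate 2), -0.032 to 0.116 for *Mtf1* (-0.007 without XAV939 replicate 1 and -0.032 without IWR-1 replicate 3), -0.912 to -0.529 for *Mt1* and -0.672 to -0.362 for *Mt2*. Genes called ranged from 608 (without siCtrl replicate 1) to 3744 (without replicate 2) with the knockdown, being 800 without siTnks12 replicate 1, 930 without siCtrl replicate 2 and 678 without siCtrl replicate 3. They ranged from 1322 (without DMSO replicate 1) to 2484 with XAV939 and from 1343 (without IWR-1 replicate 2; 1419 without IWR-1 replicate 1) to 3044 between the inhibitors. A fit without 1 library assumes that the remaining libraries of its group vary like the others, and has fewer samples. The cause of the other changes was not tested.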
